A study of Mus musculus with 13 samples.

Results

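Connecting tubule (CNT) nuclei were compared with principal cell (PC) nuclei of the collecting duct in adult mouse kidneys by single nucleus ATAC sequencing (snATAC-seq), which marks open chromatin in each nucleus. The members were the nuclei that the deposited annotation assigned to the clusters CNT and PC in 1 sample at P21 (3 weeks) and 2 samples at P56 (8 weeks). They numbered 1224 of 16887 adult nuclei and of 28316 nuclei in all 5 snATAC-seq samples. CNT held 83, 294 and 266 nuclei and PC held 103, 266 and 212 in the P21 sample, P56 sample 1 and P56 sample 2, and every series of 3 values keeps this order. Each sample was a suspension of nuclei from kidneys of mice that carried no named genotype or treatment, and neither sex nor strain is stated for them in the sources used here. The 2 P0 samples, from newborn kidneys, held 135 and 101 CNT nuclei and 394 and 350 PC nuclei and entered only the comparison of stages. Both clusters of a sample came from 1 preparation, so the sample was kept as a block in each test. The labels do not say that samples were separate animals, so p-values measure the spread between these samples.

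The median nucleus had 3936, 3240.5 and 6190.5 open peaks in CNT and 4606, 2839.5 and 6027.5 in PC, with neither cluster deeper in every sample (mean difference -35.3 peaks, exact sign-flip test over 3 samples, p = 1, where 0.25 is the smallest p it can give). The CNT share of a sample's nuclei was 3.58% ± 0.965 (SD, n = 3) and the PC share 3.37% ± 0.337 (mean difference of 0.214 percentage points, exact p = 0.75). Among CNT and PC nuclei, 1 barcode occurred in more than 1 adult sample, and 17 of the 1224 shared a barcode with a nucleus of any cluster in another adult sample. The study named the clusters from marker genes, Trpv5 for CNT and Aqp2 and Fxyd4 for PC among them, so marker levels describe the naming and test nothing. Summed over 5 connecting tubule markers (Trpv5, Calb1, S100g, Slc8a1, Klk1), gene activity was 1148, 949 and 776 in CNT and 147, 221 and 211 in PC. Gene activity is the number of open calls at peaks in the gene body and 2 kb upstream, per 1000000 open calls of that cluster in that sample. Over 6 principal cell markers (Aqp2, Aqp3, Fxyd4, Avpr2, Scnn1g, Hsd11b2) the sum was 318, 369.5 and 443 in PC and 291, 275 and 247 in CNT, against 75.5, 76.0 and 85.8 in the distal convoluted tubule (DCT). All 5 connecting tubule markers had a higher mean in CNT, and PC markers were also open in CNT, Scnn1g with a higher mean there than in PC.

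The connecting tubule links the distal convoluted tubule to the collecting duct. It develops from the nephron, whereas the collecting duct grows from the ureteric bud. Its cells reabsorb calcium under parathyroid hormone and vitamin D through an apical channel, a cytosolic calcium binder and a basolateral exchanger. Principal cells reabsorb sodium through the epithelial sodium channel under aldosterone and water through aquaporins under vasopressin, and cells of the connecting tubule can share both functions.

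The central bases of 8 peaks are printed because they lie at genes that carry the comparison: 4 were more open in CNT, at the calcium and magnesium transport genes Trpm6, S100g, Trpv5 and Slc8a1, and 4 were more open in PC, at Aqp2, Fxyd4 and Elf5 and at a distal site. They were read from mm10 (GRCm38), plus strand, and capitals mark matches to searched transcription factor motifs. The windows were chr19:18773154-18773453 in an intron of Trpm6, chrX:162960870-162961169 in an intron of Ctps2 3580 bp beyond the start of S100g, chr6:41680940-41681239 upstream of Trpv5, chr17:81671609-81671908 in an intron of Slc8a1, chr15:99578853-99579054 upstream of Aqp2, chr6:117937693-117937895 upstream of Fxyd4, chr2:103413453-103413752 in an intron of Elf5 and chr15:79879260-79879559 with Apobec3 as the nearest start.
Trpm6 intron: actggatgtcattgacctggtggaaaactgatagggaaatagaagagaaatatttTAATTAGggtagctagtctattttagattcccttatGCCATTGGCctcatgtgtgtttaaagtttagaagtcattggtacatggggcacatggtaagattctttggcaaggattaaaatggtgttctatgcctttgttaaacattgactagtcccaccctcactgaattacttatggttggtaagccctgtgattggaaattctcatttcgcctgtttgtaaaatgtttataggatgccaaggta
S100g 3-prime: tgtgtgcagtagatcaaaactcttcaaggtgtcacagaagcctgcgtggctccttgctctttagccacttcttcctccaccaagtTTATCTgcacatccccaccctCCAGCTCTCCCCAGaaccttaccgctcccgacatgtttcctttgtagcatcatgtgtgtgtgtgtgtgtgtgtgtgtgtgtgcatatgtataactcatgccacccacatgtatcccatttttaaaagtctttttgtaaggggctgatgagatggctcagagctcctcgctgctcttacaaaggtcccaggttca
Trpv5 5-prime: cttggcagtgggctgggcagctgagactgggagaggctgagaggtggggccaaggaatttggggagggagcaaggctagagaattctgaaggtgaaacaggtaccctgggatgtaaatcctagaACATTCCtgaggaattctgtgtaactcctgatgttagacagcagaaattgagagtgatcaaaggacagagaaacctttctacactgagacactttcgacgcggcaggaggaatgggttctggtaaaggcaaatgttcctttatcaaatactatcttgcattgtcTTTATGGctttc
Slc8a1 intron: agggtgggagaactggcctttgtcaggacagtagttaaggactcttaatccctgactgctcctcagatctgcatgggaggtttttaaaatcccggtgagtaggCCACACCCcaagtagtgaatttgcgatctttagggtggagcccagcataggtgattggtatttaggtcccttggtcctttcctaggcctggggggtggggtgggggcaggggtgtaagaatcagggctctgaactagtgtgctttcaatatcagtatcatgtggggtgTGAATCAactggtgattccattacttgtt
Aqp2 5-prime: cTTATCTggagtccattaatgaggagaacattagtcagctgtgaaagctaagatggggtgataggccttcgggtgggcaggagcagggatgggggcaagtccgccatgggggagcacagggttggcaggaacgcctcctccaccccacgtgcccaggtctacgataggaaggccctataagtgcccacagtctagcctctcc
Fxyd4 5-prime: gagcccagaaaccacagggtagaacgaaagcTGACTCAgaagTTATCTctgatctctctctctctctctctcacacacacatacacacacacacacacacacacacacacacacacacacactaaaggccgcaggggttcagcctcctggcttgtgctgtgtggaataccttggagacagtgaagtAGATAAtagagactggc
Elf5 intron: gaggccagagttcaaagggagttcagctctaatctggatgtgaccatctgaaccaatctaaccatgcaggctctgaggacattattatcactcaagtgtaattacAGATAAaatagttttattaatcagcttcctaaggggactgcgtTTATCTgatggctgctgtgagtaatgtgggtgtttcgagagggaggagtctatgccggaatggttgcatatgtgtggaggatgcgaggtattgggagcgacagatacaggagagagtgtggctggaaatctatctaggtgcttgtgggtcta
distal peak: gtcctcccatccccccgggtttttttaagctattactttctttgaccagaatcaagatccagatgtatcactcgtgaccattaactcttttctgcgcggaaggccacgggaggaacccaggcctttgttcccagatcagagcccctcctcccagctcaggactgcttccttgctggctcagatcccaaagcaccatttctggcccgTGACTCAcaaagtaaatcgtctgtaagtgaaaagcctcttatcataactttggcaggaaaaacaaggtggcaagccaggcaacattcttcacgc
In print order, the capitals are LHX and TFAP2 letters in the Trpm6 intron, GATA and TFCP2L1 letters near S100g, TEAD and HOX9 letters at Trpv5, KLF and AP1 letters in the Slc8a1 intron, GATA letters at Aqp2, AP1 and 2 GATA matches at Fxyd4, 2 GATA matches in the Elf5 intron and AP1 letters in the distal peak. A match is a description of the letters and not of a bound factor.

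The Trpm6 intron peak (chr19:18772802-18773805) was open in 28.9%, 18% and 36.8% of CNT nuclei and in 0.921% ± 0.521 of PC nuclei (mean ± SD, n = 3), with no overlap between clusters (log2 4.80 ± 0.38, adjusted p = 1.97e-32 by the quasi-likelihood test of edgeR, where ± is the standard error). It was open in 40.1% ± 16.5 of DCT nuclei, in which the magnesium channel Trpm6 also works. The peak near S100g, the gene of a cytosolic calcium binder, was open in 26.5%, 18.7% and 42.1% of CNT nuclei and 2.02% ± 2.35 of PC nuclei (log2 3.68 ± 0.31, adjusted p = 6.57e-30). DCT and intercalated cell (IC) nuclei, in which it was open in 2.36% ± 1.5 and 1.01% ± 1.07, gave the level seen outside CNT and PC. At Trpv5, the apical calcium channel, the upstream peak was open in 16.9%, 9.18% and 20.3% of CNT nuclei and 1.94%, 2.26% and 2.83% of PC nuclei (log2 2.49 ± 0.37, adjusted p = 1.05e-09). The Slc8a1 peak, in the gene of the sodium-calcium exchanger, was open in 17.2% ± 6.94 of CNT and 1.04% ± 1.20 of PC nuclei (log2 3.59 ± 0.43, adjusted p = 7.47e-15). DCT stood at 1.16% ± 0.614 at the Trpv5 peak and 1.57% ± 2.44 at the Slc8a1 peak, while the Trpm6 intron was no lower in mean in DCT than in CNT.

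At the start of Aqp2, the vasopressin-regulated water channel, the peak (chr15:99578527-99579477) was open in 46.6%, 27.4% and 58.5% of PC nuclei and 10.8%, 8.5% and 16.5% of CNT nuclei (log2 -1.90 ± 0.16, adjusted p = 5.22e-25). The clusters did not overlap, but CNT stood above DCT, at 1.00% ± 0.878, and IC, at 2.61% ± 1.98. The median DCT nucleus had 3270, 2549 and 5611.5 open peaks and the median IC nucleus 4518.5, 3418 and 5737.5, so that DCT was shallower than CNT in each sample and IC deeper in the P21 sample and P56 sample 1. The part of depth in these shares was not tested. The start of Fxyd4, a regulator of the sodium pump, was open in 24.3%, 13.5% and 36.8% of PC and 3.61%, 4.08% and 3.38% of CNT nuclei (log2 -2.76 ± 0.28, adjusted p = 1.19e-19). In the Elf5 intron, within the gene of an ETS factor of the collecting duct, 21.3% ± 5.71 of PC and 1.26% ± 1.86 of CNT nuclei were open (log2 -3.58 ± 0.36, adjusted p = 1.77e-20). The distal peak was open in 37.9%, 17.3% and 36.3% of PC and 4.82%, 3.74% and 4.14% of CNT nuclei (log2 -2.84 ± 0.26, adjusted p = 5.00e-24). The peak in the window of Elf5 had 1 open call in CNT outside P56 sample 1, so no fold is given without it.

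Across the genome, 2996 peaks were more open in CNT and 2912 in PC, of 22771 that passed the filter on low counts, 13.2% and 12.8% of those tested. Of 18064 genes tested by activity, 1588 (8.79%) were higher in CNT and 2110 (11.7%) in PC. The authors had defined the clusters on the open chromatin of these same nuclei, so these counts and all adjusted p-values between clusters rank sites and are no independent test that the clusters differ. The direction was the same in all 3 samples for 5591 of the 5908 called peaks. The calls came from a fit of these same samples, which favours a shared direction, and the share over all tested peaks was not counted. DESeq2 called 967 and 817 peaks, and each of these 1784 was also an edgeR call with the same direction. The number of calls depended on P56 sample 2, the deepest, without which 1603 peaks and 1056 genes were higher in CNT and 1064 peaks and 1130 genes in PC. Where a named call was lost under another setting, that setting is given: DESeq2 in place of edgeR, a fit without the sample block, a start window of 2 kb on either side of the annotated starts in place of gene body and upstream sequence, peaks that overlap the window of 1 gene only, equal numbers of nuclei in both clusters of a sample, no filter on low counts, nuclei thinned to 1000 open peaks, which leaves fewer calls, or, for peaks, a Fisher exact test over nuclei. A gene or peak under the filter of such a fit, or of a fit with a sample left out, was not tested there and is not named as lost. A peak or gene that passed the filter only through the cluster where it was open had to differ, and 7.57% of all 300755 peaks were tested.

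**Figure D1:**
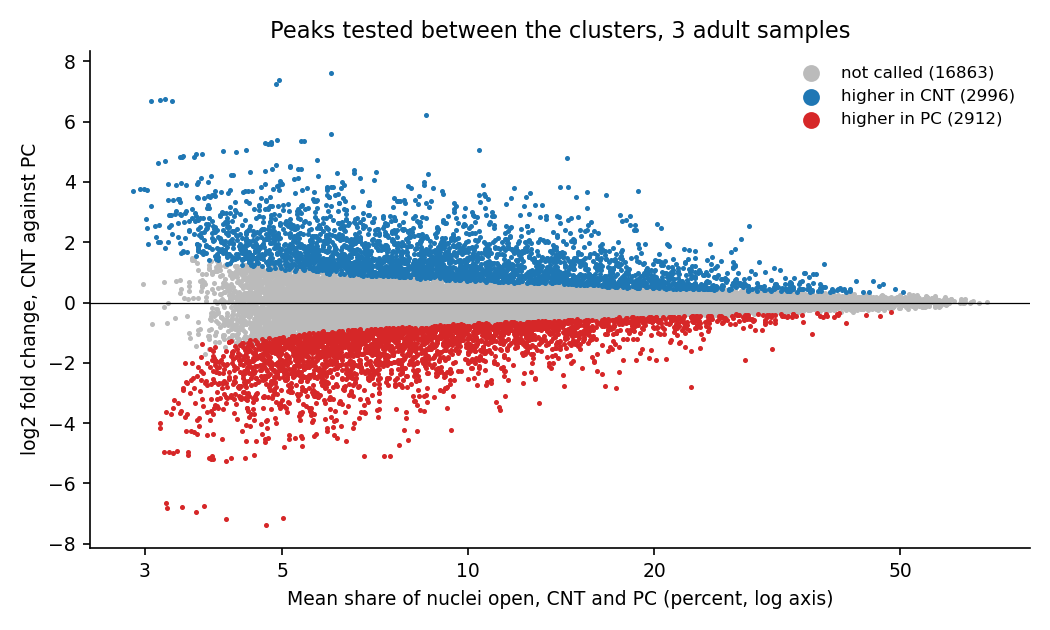
Each point is a tested peak, with its mean share of open nuclei over both clusters on the x axis (percent, log scale) and the log2 difference CNT minus PC on the y axis, with 2996 peaks higher in CNT, 2912 higher in PC and 16863 not called in separate colours. Called peaks lie on both sides of 0 over the whole range of openness.

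Most sites that set the clusters apart lay away from gene starts. A start was covered by 18.4% of peaks higher in CNT, 28.4% of peaks higher in PC and 60.6% of peaks that were not called. The median distance to the nearest start was 11438.5 bp for CNT and 7125 bp for PC. Introns and distal sequence together held 65.5% of CNT peaks and 55.0% of PC peaks, against 38.1% of all tested peaks. The median CNT peak was open in 13.1% of CNT and 4.42% of PC nuclei, and the median PC peak in 11.0% of PC and 4.05% of CNT nuclei. Several genes held many called peaks, where 13.2% of all tested peaks were higher in CNT and 12.8% in PC. All 7 tested peaks in Fxyd2, 5 of 5 in Calb1, 6 of 6 in Sulf2 and 10 of 11 in Rap1gap2 were higher in CNT, and 5 of 6 in Pax2, 4 of 4 in Elf5, 5 of 5 in Camkk2 and 5 of 5 in Tgfbr3 were higher in PC, genes chosen after their counts were seen. Of 2803 protein coding genes with a called peak in the window, 220 had peaks of both directions.

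The central 300 bp of called peaks were searched for 19 motifs on both strands, with N for any base. The ESRR letters TCAAGGTCA, of the estrogen related receptors that drive mitochondrial genes in distal tubule, were in 2.40% of peaks higher in CNT and 0.447% of those higher in PC, against 0.843% of tested and 0.854% of all peaks. HNF1 letters GTTAATNAT, of a tubule factor, were in 3.17% and 1.34% (1.68% of tested, 1.48% of all). The TFCP2L1 letters CCAGNNNNNNCCAG were in 8.54% and 5.46% (5.50% of tested, 3.73% of all), a factor active in both cell types. Other letters were more frequent in PC. The ELF letters CAGGAAGT, of ETS factors such as Elf5 and Ehf, were in 5.46% of PC peaks and 2.24% of CNT peaks (3.16% of tested, 3.76% of all). AP1 letters TGANTCA, of Jun and Fos factors, were in 12.3% and 8.38% (7.28% of tested, 10.5% of all). GATA letters AGATAA, which Gata2 and Gata3 recognise, were in 13.2% and 10.6% (8.58% of tested, 15.3% of all). Of the other letters marked in the printed sequences, HOX9 CCATAAA were in 5.27% of CNT and 3.26% of PC peaks (2.79% of tested, 4.94% of all) and LHX CTAATTA in 3.44% and 2.20% (1.91% of tested, 3.42% of all). The letters TFAP2 GCCNNNGGC, TEAD ACATTCC and KLF GGGTGTGG, although marked in sequences more open in CNT, were more frequent in PC peaks. TFAP2 letters were in 15.0% of CNT and 18.1% of PC peaks (22.3% of tested, 8.97% of all), TEAD letters in 7.91% and 9.0% (5.29% of tested, 6.06% of all) and KLF letters in 2.67% and 4.26% (3.20% of tested, 2.46% of all). Among called peaks over no annotated start, a choice made after seeing the data, the difference CNT minus PC went from -3.05 to -0.86 percentage points for TFAP2 and from -1.09 to -2.57 for TEAD. Of tested peaks, 50.9% covered a start. Away from starts, HNF1 letters were in 3.60% of CNT, 1.58% of PC and 3.25% of not called peaks. In this order ESRR had 2.82%, 0.528% and 0.963%, TFCP2L1 8.71%, 5.66% and 6.17% and ELF 2.33%, 6.14% and 3.31%. AP1 had 9.04%, 14.2% and 10.3% and GATA 11.9%, 16.4% and 12.9%. The median GC content of these windows was 50.7% in CNT, 53.0% in PC and 56.3% in tested peaks, and its part in the motif shares was not tested. No test was run on motif shares.

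**Figure D2:**
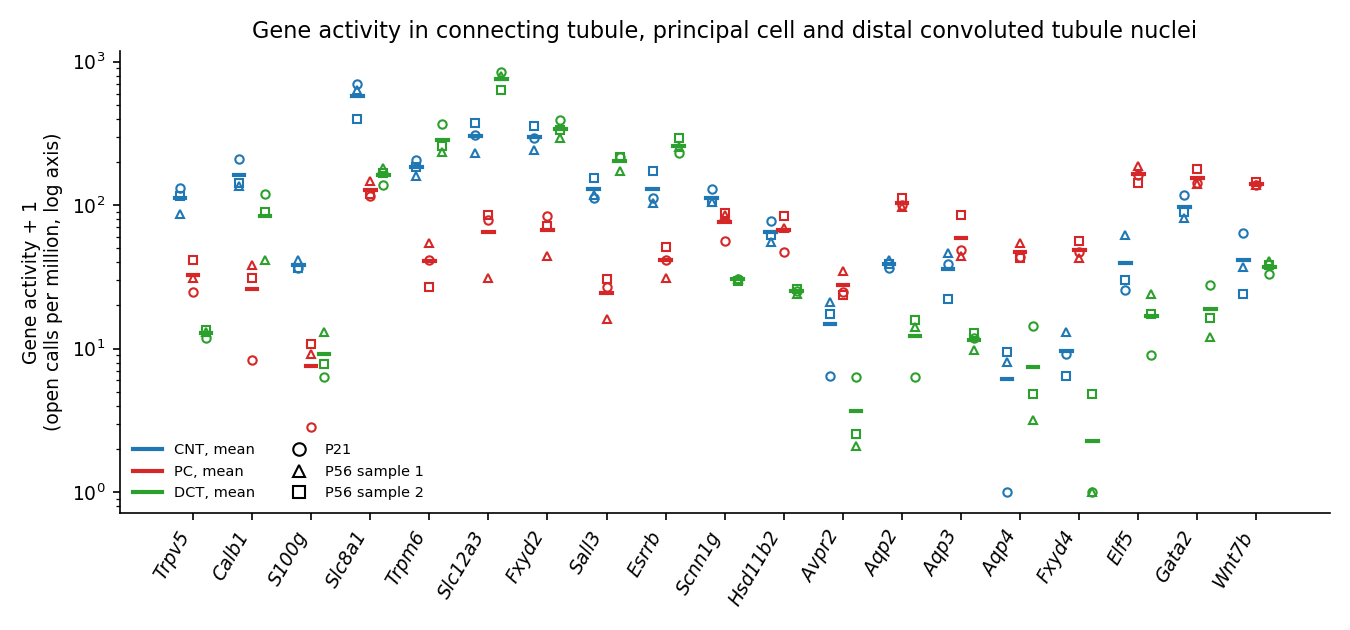
Gene activity of 19 genes is plotted on a log axis, with 1 added, with 1 point for each adult sample and a colour for CNT, PC and DCT. Trpv5 lay at 131, 86.5 and 116 in CNT and 23.9, 30.3 and 40.8 in PC, and Aqp2 at 35.4, 40.2 and 38.1 in CNT and 99.3, 96.7 and 112 in PC.

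Genes of calcium and magnesium transport were mostly more open in CNT. Of 15 tested genes, 11 were higher in CNT and the other 4 did not pass, where 8.79% of all tested genes were higher in CNT and 11.7% in PC, with a median log2 difference of 1.28 against 0.011 over all tested genes. The apical channel Trpv5 (chr6:41652173-41680769) had an activity of 131, 86.5 and 116 in CNT and 23.9, 30.3 and 40.8 in PC (log2 1.61 ± 0.16, adjusted p = 5.23e-09). Calb1, the cytosolic calcium carrier calbindin, had 209, 136 and 141 in CNT and 7.36, 37.3 and 30.3 in PC (log2 2.38 ± 0.20, adjusted p = 1.99e-10). Slc8a1, the basolateral exchanger, had 696, 631 and 399.8 in CNT and 114, 146 and 118 in PC (log2 2.06 ± 0.12, adjusted p = 6.92e-13). For all 3 genes the lowest CNT sample lay above the highest PC sample. S100g had 37.1 ± 2.72 in CNT and 6.62 ± 4.22 in PC (log2 2.20 ± 0.33, adjusted p = 8.77e-06). The magnesium channel Trpm6 had 204, 159.9 and 184 in CNT and 40.5, 53.6 and 26.0 in PC (log2 2.22 ± 0.16, adjusted p = 1.49e-11). Hormone receptors of this pathway were also more open in CNT. Pth1r, the parathyroid hormone receptor, had 211 ± 27.7 in CNT and 76.2 ± 8.65 in PC (log2 1.46 ± 0.12, adjusted p = 1.75e-10) and Kl, the FGF23 co-receptor Klotho, had 119 ± 16.2 in CNT and 38.7 ± 4.91 in PC (log2 1.57 ± 0.14, adjusted p = 6.31e-10). A peak in the 3'-UTR of Calb1 was open in 26.5% ± 10.5 of CNT and 1.65% ± 0.455 of PC nuclei (log2 3.83 ± 0.35, adjusted p = 2.93e-24). Trpv6, Trpm7, Cyp24a1 and the plasma membrane calcium pump Atp2b1 did not pass, with log2 0.97 ± 0.52, adjusted p = 0.213 for the second calcium channel Trpv6 and log2 0.12 ± 0.12, adjusted p = 0.586 for Atp2b1. Trpv6 passed without P56 sample 1 (log2 1.83, adjusted p = 0.0370). In the start window the log2 difference was 1.34 for Calb1.

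Genes of thiazide-sensitive cotransport, the salt transport of the neighbouring DCT, were mostly higher in CNT than in PC. Of 9 tested genes, 7 were higher in CNT and the others, Cul3 and Egf, did not pass, against 8.79% higher in CNT and 11.7% in PC of all tested genes. The median was 0.82, against 0.011 over all tested genes. Slc12a3, the sodium-chloride cotransporter, had an activity of 307, 228 and 375 in CNT and 77.3, 30.3 and 84.4 in PC (log2 2.23 ± 0.14, adjusted p = 8.80e-13), and of 849.7, 792 and 634 in DCT. The peak over its start was open in 14.5%, 6.80% and 38.7% of CNT, 0.804% ± 1.01 of PC and 43.9% ± 16.7 of DCT nuclei. In activity, CNT lay between PC and DCT in each sample. Bsnd, the chloride channel subunit barttin, had 141 ± 8.34 in CNT and 24.4 ± 11.7 in PC (log2 2.35 ± 0.16, adjusted p = 9.77e-12), and the peak over its start was also open in 36.2% ± 14.6 of IC nuclei. Klhl3, which targets WNK kinases for degradation, had 413 ± 40.4 in CNT and 143 ± 45.7 in PC (log2 1.41 ± 0.13, adjusted p = 1.81e-09), and the kinase Wnk4 had 109 ± 19.2 in CNT and 65.1 ± 10.8 in PC (log2 0.60 ± 0.13, adjusted p = 8.56e-04). Within Wnk1 the sites went opposite ways. An intronic peak, open in 18.6% ± 7.5 of CNT and 2.14% ± 1.02 of PC nuclei, was higher in CNT (log2 2.83 ± 0.34, adjusted p = 3.13e-14), while the peak over the annotated start was open in 23.6% ± 11.2 of CNT and 33.0% ± 16.3 of PC nuclei (log2 -0.50 ± 0.16, adjusted p = 0.0122). Over its whole window Wnk1 was higher in CNT (log2 0.82 ± 0.12, adjusted p = 3.06e-06). The peak over the start of Wnk1 did not pass without the P21 sample (log2 -0.40, adjusted p = 0.0910), P56 sample 1 (log2 -0.44, adjusted p = 0.0766) or P56 sample 2 (log2 -0.47, adjusted p = 0.241). Calls were also lost for Wnk4 and the peak over the start of Wnk1 with DESeq2, the peak over the start of Wnk1 without the sample block, with no filter and in thinned nuclei, Wnk1 in the start window, and Wnk4 over peaks of 1 gene.

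Sodium channel and aldosterone response genes divided between the clusters. Of 15 tested genes, 7 were higher in CNT and 4 in PC, against 8.79% and 11.7% of all tested genes, with a median of 0.20. Fxyd2, the gamma subunit of the sodium pump, stood with CNT. It had 294, 240.3 and 357 in CNT and 82.8, 43.1 and 71.1 in PC (log2 2.20 ± 0.13, adjusted p = 6.92e-13). The peak over the start of Fxyd2 was open in 19.0% ± 15.2 of CNT and 2.84% ± 2.27 of PC nuclei. Of the channel subunits, Scnn1a (log2 0.39 ± 0.13, adjusted p = 0.0364) and Scnn1g (log2 0.38 ± 0.14, adjusted p = 0.0453) were slightly higher in CNT, and Scnn1b had 153 ± 16.6 in CNT and 115 ± 54.9 in PC and did not pass (log2 0.20 ± 0.15, adjusted p = 0.429). Scnn1b passed without P56 sample 2 (log2 0.55, adjusted p = 0.0141), while its log2 difference was -0.0068 without the P21 sample. The mineralocorticoid receptor Nr3c2 was higher in CNT (log2 0.40 ± 0.10, adjusted p = 0.00339) and Usp2, a deubiquitinase with an aldosterone-induced form, had 396 ± 91.6 in CNT and 229 ± 54.4 in PC (log2 0.70 ± 0.11, adjusted p = 2.00e-05). Higher in PC were Fxyd4, at 8.16, 12.1 and 5.44 in CNT and 46.0, 42.0 and 54.9 in PC (log2 -2.64 ± 0.30, adjusted p = 1.14e-07), and Sgk1, the aldosterone-induced kinase that holds the channel at the membrane, at 101 ± 9.28 in CNT and 181 ± 33.1 in PC (log2 -0.82 ± 0.12, adjusted p = 4.40e-06). Nedd4l, the ubiquitin ligase that removes the channel, and Tsc22d3, a steroid-induced factor, also passed (log2 -0.34 ± 0.094, adjusted p = 0.00848 and log2 -0.40 ± 0.14, adjusted p = 0.0386). Tsc22d3, Nedd4l, Scnn1a and Nr3c2 were singled out after their values were seen. Nedd4l did not pass without the P21 sample (log2 -0.30, adjusted p = 0.0658) or P56 sample 2 (log2 -0.27, adjusted p = 0.174). Tsc22d3 did not pass without the P21 sample (log2 -0.39, adjusted p = 0.113) or P56 sample 2 (log2 -0.15, adjusted p = 0.742). Scnn1a (log2 0.22, adjusted p = 0.251) and Scnn1g (log2 0.25, adjusted p = 0.247) did not pass without the P21 sample. The log2 difference was 0.57 for Scnn1g without P56 sample 2. In the start window the log2 difference was -0.54 for Sgk1. Under other settings calls were lost for Nr3c2, Scnn1a, Scnn1g, Nedd4l and Tsc22d3 with DESeq2 and without the sample block, Nr3c2, Scnn1g and Nedd4l in the start window, Tsc22d3 over peaks of 1 gene and with no filter, Scnn1a, Scnn1g and Tsc22d3 with equal nuclei, and Scnn1a, Scnn1g, Nedd4l and Tsc22d3 in thinned nuclei.

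Of 14 tested genes of water channels and the vasopressin response, 6 were higher in PC, 1, the kinase subunit Prkaca, was higher in CNT and 7 did not pass. Of all tested genes, 11.7% were higher in PC and 8.79% in CNT. The median of the list was -0.63. Aqp2 (chr15:99579055-99584547) had an activity of 35.4, 40.2 and 38.1 in CNT and 99.3, 96.7 and 112 in PC (log2 -1.49 ± 0.14, adjusted p = 4.33e-09), and its clusters did not overlap. The basolateral water channel Aqp4 had 5.17 ± 4.53 in CNT and 45.8 ± 6.77 in PC (log2 -2.76 ± 0.32, adjusted p = 1.55e-07). Aqp3, the other basolateral channel, had 38.1, 45.2 and 21.2 in CNT and 47.8, 43.1 and 83.7 in PC (log2 -1.06 ± 0.25, adjusted p = 0.00212). Its clusters overlapped, and the largest gap was in P56 sample 2. The prostaglandin E receptors Ptger1, at 55.0 ± 10.0 in CNT and 93.6 ± 6.09 in PC (log2 -0.86 ± 0.14, adjusted p = 2.68e-05), and Ptger4, at 34.8 ± 6.77 in CNT and 66.8 ± 8.87 in PC (log2 -0.91 ± 0.17, adjusted p = 1.27e-04), were higher in PC. The vasopressin receptor Avpr2 had 14.0 ± 7.62 in CNT and 26.7 ± 6.15 in PC and did not pass (log2 -0.78 ± 0.30, adjusted p = 0.0655). Adcy6, the cyclase below it, had 173 ± 21.3 in CNT and 141 ± 19.2 in PC (log2 0.24 ± 0.11, adjusted p = 0.136), and Prkaca, named after its value was seen, had log2 0.38 ± 0.13, adjusted p = 0.0341. Prkaca did not pass without the P21 sample (log2 0.35, adjusted p = 0.103), P56 sample 1 (log2 0.38, adjusted p = 0.0766) or P56 sample 2 (log2 0.44, adjusted p = 0.159). The log2 difference was -1.67 for Aqp3 without P56 sample 1. Aqp3 (log2 -0.061, adjusted p = 0.944) did not pass without P56 sample 2. Calls were also lost for Aqp3, Ptger1, Ptger4 and Prkaca with DESeq2, Aqp3 and Prkaca without the sample block, Prkaca in the start window, and Ptger1, Ptger4 and Prkaca in thinned nuclei.

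Potassium channel genes showed no shared direction. Of 11 tested, 3 were higher in CNT and 2 in PC, against 8.79% and 11.7% of all tested genes, with a median of -0.021. Kcnj10, a basolateral channel subunit of the distal nephron, had 199, 180.0 and 206 in CNT and 55.2, 96.7 and 103 in PC (log2 1.06 ± 0.13, adjusted p = 3.03e-07). Its partner Kcnj16 had 135 ± 27.2 in CNT and 106 ± 7.06 in PC (log2 0.36 ± 0.12, adjusted p = 0.0265). Kcnj1, the secretory channel ROMK, had 167 ± 9.64 in CNT and 88.5 ± 27.9 in PC (log2 0.78 ± 0.13, adjusted p = 2.52e-05), and the peak over its start was open in 12%, 10.5% and 28.9% of CNT and 3.46% ± 4.46 of PC nuclei (log2 2.06 ± 0.31, adjusted p = 1.93e-09). Higher in PC were Kcnj15, at 24.9 ± 11.7 in CNT and 50.9 ± 12.8 in PC (log2 -1.28 ± 0.28, adjusted p = 8.31e-04), and Kcnk5, at 56.7 ± 9.45 in CNT and 93.6 ± 50.4 in PC (log2 -0.62 ± 0.16, adjusted p = 0.00566). The large conductance channel Kcnma1 had 85.5 ± 24.9 in CNT and 99.1 ± 14.5 in PC (log2 -0.32 ± 0.13, adjusted p = 0.0884). Kcnj16 did not pass without P56 sample 1 (log2 0.31, adjusted p = 0.104) or P56 sample 2 (log2 0.34, adjusted p = 0.234). Kcnk5 did not pass without the P21 sample (log2 -0.41, adjusted p = 0.169) or P56 sample 2 (log2 -0.51, adjusted p = 0.0792). The log2 difference was -1.96 for Kcnj15 without P56 sample 1. Kcnj15 (log2 -0.44, adjusted p = 0.425) did not pass without P56 sample 2. Under other settings calls were lost for Kcnj16, Kcnj15 and Kcnk5 with DESeq2, and Kcnj16 and Kcnk5 without the sample block, in the start window and in thinned nuclei.

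Among transcription factors of the collecting duct and ureteric bud, 7 of 13 tested were higher in PC and 1, Tfcp2l1, in CNT, with a median of -0.39. The shares over all tested genes were 11.7% and 8.79%. Elf5 had 24.5, 61.3 and 29.0 in CNT and 162, 185 and 141 in PC (log2 -2.06 ± 0.15, adjusted p = 2.58e-11). Pax2, which guides ureteric bud and nephron formation, had 141, 132 and 111 in CNT and 261, 296 and 248 in PC (log2 -1.14 ± 0.11, adjusted p = 4.76e-09), and an intronic Pax2 peak was open in 18.5% ± 4.14 of PC and 2.80% ± 0.817 of CNT nuclei (log2 -2.73 ± 0.33, adjusted p = 1.08e-14). Neither gene's clusters overlapped. Gata2 (log2 -0.85 ± 0.13, adjusted p = 8.64e-06), the ETS factor Ehf (log2 -0.77 ± 0.12, adjusted p = 1.39e-05) and the homeobox factor Emx2 (log2 -0.99 ± 0.18, adjusted p = 1.24e-04) were also higher in PC, as were Gata3 (log2 -0.39 ± 0.11, adjusted p = 0.0106) and Klf5 (log2 -0.92 ± 0.19, adjusted p = 6.47e-04). Tfcp2l1, a factor of intercalated and principal cells, was higher in CNT (log2 0.32 ± 0.11, adjusted p = 0.0450). One of the PC peaks with the smallest p lay over the start of Tbx3, a T-box factor, and was open in 49.5%, 25.6% and 46.2% of PC, 4.82%, 5.10% and 6.39% of CNT and 22.4% ± 5.26 of IC nuclei (log2 -2.80 ± 0.21, adjusted p = 2.31e-35). Tfcp2l1 did not pass without the P21 sample (log2 0.19, adjusted p = 0.296) or P56 sample 2 (log2 0.34, adjusted p = 0.100). Gata3 (log2 -0.26, adjusted p = 0.370) and Klf5 (log2 -0.62, adjusted p = 0.0628) did not pass without P56 sample 2. The log2 difference was -0.60 for Emx2 without P56 sample 2. In the start window the log2 difference was -0.37 for Pax2 and 0.48 for Tfcp2l1. Calls were also lost for Emx2, Gata3, Klf5 and Tfcp2l1 with DESeq2, Gata3 and Tfcp2l1 without the sample block, Gata3 over peaks of 1 gene, Tfcp2l1 with equal nuclei, and Gata2, Ehf, Gata3, Klf5 and Tfcp2l1 in thinned nuclei.

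Most called factors of the distal nephron were higher in CNT. Of 15 tested, 6 were higher in CNT and 2 in PC, against 8.79% and 11.7% of all tested genes, with a median of 0.19. Sall3, a zinc finger factor, had 111, 118 and 155 in CNT and 25.8, 15.2 and 29.6 in PC (log2 2.42 ± 0.16, adjusted p = 2.50e-12), and an intronic peak was open in 22.3% ± 7.54 of CNT and 2.34% ± 2.20 of PC nuclei (log2 3.21 ± 0.33, adjusted p = 1.37e-19). Esrrb, an estrogen related receptor, had 111, 103 and 172 in CNT and 40.5, 30.3 and 50.0 in PC (log2 1.67 ± 0.13, adjusted p = 1.41e-10). No PC sample reached a CNT sample for either gene. Both were higher in DCT than in CNT in each sample, Sall3 at 216, 172 and 216 and Esrrb at 229, 253 and 294. The homeobox factor Emx1 (log2 1.40 ± 0.15, adjusted p = 3.18e-08) and Tfap2b, a factor needed for the distal tubule (log2 0.86 ± 0.15, adjusted p = 5.19e-05), were higher in CNT. Emx1 and Emx2 are related factors and differed in opposite directions. Pax8, a nephron factor, had 122 ± 2.76 in CNT and 188 ± 31.1 in PC (log2 -0.59 ± 0.11, adjusted p = 2.09e-04), and Irx3, named after its value was seen, had 6.04 ± 4.23 in CNT and 15.4 ± 3.44 in PC (log2 -1.66 ± 0.49, adjusted p = 0.0133), both higher in PC. Mecom, a factor of distal and collecting duct epithelium, had 688 ± 27.9 in CNT and 578 ± 58.7 in PC and did not pass (log2 0.20 ± 0.091, adjusted p = 0.121), but passed with no filter (log2 0.25, adjusted p = 0.00670) and over peaks of 1 gene (log2 0.26, adjusted p = 0.0180). In the start window the log2 difference was 2.92 for Esrrb. In thinned nuclei the log2 difference was 2.79 for Esrrb. Under other settings calls were lost for Pax8 and Irx3 with DESeq2, Pax8 over peaks of 1 gene, and Tfap2b in thinned nuclei.

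Hox genes, which set position along the body axis, differed by cluster of genes. Of 26 tested, 12 were higher in CNT and 3 in PC, against 8.79% and 11.7% of all tested genes, with a median of 0.38. Counted by peaks, 9 of 12 tested in the Hoxa cluster (chr6:52155590-52260880) and 3 of 3 in the Hoxc cluster (chr15:102921103-103036852) were higher in CNT, with median log2 differences of 1.39 and 1.78. In the Hoxb cluster (chr11:96194316-96368256), 6 of 25 were higher in PC (median -0.41), and in the Hoxd cluster (chr2:74668310-74765142), 3 of 13 were higher in CNT and 5 in PC (median -0.045). Of all 22771 tested peaks, 13.2% were higher in CNT and 12.8% in PC. Hoxa9 had 111, 70.4 and 84.7 in CNT and 29.4, 10.5 and 33.1 in PC (log2 1.71 ± 0.20, adjusted p = 1.29e-07), and Hoxa7 had 86.3 ± 10.8 in CNT and 23.3 ± 12.4 in PC (log2 1.74 ± 0.21, adjusted p = 2.00e-07). In the Hoxc cluster, Hoxc10 had 39.7 ± 14.2 in CNT and 7.69 ± 2.59 in PC (log2 2.09 ± 0.32, adjusted p = 1.09e-05), and the peak over its start, shared with the window of Hoxc5, was open in 19.0% ± 8.80 of CNT and 4.08% ± 2.61 of PC nuclei (log2 1.97 ± 0.31, adjusted p = 8.89e-09). The 3 genes higher in PC were Hoxb3 (log2 -0.50 ± 0.13, adjusted p = 0.00573), Hoxb9 (log2 -0.64 ± 0.15, adjusted p = 0.00190) and Hoxd3 (log2 -0.66 ± 0.13, adjusted p = 4.30e-04), named after their values were seen. Neighbouring Hox windows overlap and share peaks, so members are not independent. Hoxb3 (log2 -0.25, adjusted p = 0.543), Hoxb9 (log2 -0.38, adjusted p = 0.289) and Hoxd3 (log2 -0.35, adjusted p = 0.159) did not pass without P56 sample 2. In thinned nuclei the log2 difference was 2.63 for Hoxa9. Calls were also lost for Hoxb3, Hoxb9 and Hoxd3 with DESeq2, Hoxb3 and Hoxb9 without the sample block and in thinned nuclei, and Hoxb3 over peaks of 1 gene.

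Genes of ureteric branching and Wnt signalling held members of both directions. Of 11 tested, 3 were higher in CNT and 4 in PC, against 8.79% and 11.7% of all tested genes, with a median of -0.046. Called ligands and receptors were higher in PC, apart from Lgr5. Wnt7b, needed for the medullary collecting duct, had 62.5, 36.2 and 23 in CNT and 136, 136 and 144 in PC (log2 -2.13 ± 0.17, adjusted p = 1.31e-10), and Wnt9b, the ureteric signal to nephron progenitors, had 76.3 ± 10.3 in CNT and 134 ± 25.6 in PC (log2 -1.0 ± 0.13, adjusted p = 1.33e-06). The receptor Fzd1 had 27.1 ± 2.87 in CNT and 62.1 ± 5.26 in PC (log2 -1.18 ± 0.19, adjusted p = 2.08e-05) and Gfra1, the co-receptor for GDNF, had log2 -0.46 ± 0.17, adjusted p = 0.0470. Etv4 and Etv5, ETS factors downstream of GDNF and FGF signals, were higher in CNT. Etv4 had 76.1, 74.4 and 117 in CNT and 25.8, 23.3 and 32.4 in PC (log2 1.71 ± 0.16, adjusted p = 2.34e-09) and Etv5 had 178 ± 18.8 in CNT and 95.4 ± 8.32 in PC (log2 0.91 ± 0.12, adjusted p = 1.24e-06), and the peak over the Etv4 start was open in 15.5% ± 8.39 of CNT and 4.45% ± 2.39 of PC nuclei. Lgr5, a Wnt co-receptor, had 63.3 ± 28.8 in CNT and 24.8 ± 6.88 in PC (log2 1.25 ± 0.22, adjusted p = 6.07e-05), named, like Gfra1, after its value was seen. Gfra1 did not pass without the P21 sample (log2 -0.52, adjusted p = 0.0615), P56 sample 1 (log2 -0.32, adjusted p = 0.348) or P56 sample 2 (log2 -0.54, adjusted p = 0.134). In the start window the log2 difference was -1.57 for Wnt9b. Under other settings calls were lost for Gfra1 with DESeq2, without the sample block, over peaks of 1 gene, with equal nuclei and with no filter, and Fzd1, Gfra1 and Etv5 in thinned nuclei.

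Of 17 tested claudin, cadherin and keratin genes, 3 were higher in PC and 2 in CNT, against 11.7% and 8.79% of all tested genes, with a median of -0.17, so most did not pass. Krt19, a simple epithelial keratin of ureteric epithelium, had 8.16, 4.02 and 1.81 in CNT and 44.2, 18.7 and 19.0 in PC (log2 -2.70 ± 0.45, adjusted p = 4.01e-05). Krt18 had 10.1 ± 1.97 in CNT and 26.0 ± 8.41 in PC (log2 -1.41 ± 0.32, adjusted p = 0.00150) and the scaffold Tjp1 66.3 ± 6.39 in CNT and 112 ± 33.7 in PC (log2 -0.75 ± 0.13, adjusted p = 9.44e-05). Krt7 (log2 0.40 ± 0.12, adjusted p = 0.0135) and the kidney cadherin Cdh16 (log2 0.32 ± 0.11, adjusted p = 0.0330) were slightly higher in CNT. The claudin Cldn7 had 67.7 ± 8.57 in CNT and 66.6 ± 9.30 in PC (log2 -0.082 ± 0.14, adjusted p = 0.773). Krt7 did not pass without the P21 sample (log2 0.37, adjusted p = 0.0577) or P56 sample 2 (log2 0.42, adjusted p = 0.105). Cdh16 did not pass without the P21 sample (log2 0.34, adjusted p = 0.0534), P56 sample 1 (log2 0.33, adjusted p = 0.0773) or P56 sample 2 (log2 0.30, adjusted p = 0.269). Calls were also lost for Krt18, Tjp1, Krt7 and Cdh16 with DESeq2, Krt7 and Cdh16 without the sample block, in the start window and in thinned nuclei, and Krt7 over peaks of 1 gene.

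The genes with the largest differences in CNT included 5 kallikreins. Tissue kallikrein Klk1, a protease secreted by the connecting tubule, had 76.1, 55.3 and 84.1 in CNT and 3.99 ± 6.91 in PC (log2 3.55 ± 0.34, adjusted p = 3.19e-09), and Klk15 had 103, 97.5 and 101 in CNT and 1.84, 3.5 and 11.3 in PC (log2 3.76 ± 0.25, adjusted p = 5.39e-12). Klk1b3 had 61 open calls in CNT and 1 in PC, a ratio of 57.1 per open call of the cluster with an exact 95% interval of 9.87 to 2292 that covers counting error only. Klk1b22 (log2 3.74 ± 0.37) and Klk1b1 (log2 3.22 ± 0.49) followed. The Klk1b genes are neighbouring copies of similar sequence, so their values are uncertain where reads could be placed at several of them, which was not tested. The peak with the smallest p in CNT, in an intron of Klk15, was open in 36.1%, 21.4% and 48.5% of CNT and 2.30% ± 2.50 of PC nuclei (log2 3.71 ± 0.27, adjusted p = 7.86e-38). Oxgr1, the receptor for 2-oxoglutarate found on intercalated cells and in the connecting tubule, had 38.1, 47.3 and 48.4 in CNT and 2.96 ± 3.65 in PC (log2 3.5 ± 0.39, adjusted p = 7.82e-08), and the peak over its start was open in 19.8% ± 8.57 of CNT, 17.2% ± 7.47 of DCT and 31.3% ± 5.19 of IC nuclei. Gpx6 had 43 open calls in CNT and 3 in PC (ratio 13.4, exact interval 4.29 to 67.6). Llcfc1 (log2 3.57 ± 0.53), Lrrc52 (log2 3.18 ± 0.29) and the cytokine gene Il10 (log2 3.31 ± 0.56) completed the list. Lrrc52 stood at 148, 112 and 144 in DCT, against 21.8, 43.2 and 79.2 in CNT. Gpx6 and Il10 were also higher in DCT than in CNT in each sample. The 5 kallikreins and Llcfc1 were lower in DCT than in CNT in each sample, and Oxgr1 was higher in DCT only in the P21 sample. The peak of Il10 lay in an intron, and the peak over its start fell below the filter. Klk1 had no open call in PC outside P56 sample 2, so no fold is given without it. Oxgr1 had 1 open call in PC outside P56 sample 2, so no fold is given without it. The peak over the start of Oxgr1 had no open call in PC outside P56 sample 2, so no fold is given without it. With DESeq2 the log2 difference was 6.27 for Klk1.

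In PC, 3 of the genes with the largest differences had no open call in any CNT sample. These genes passed the filter on low counts only through PC, so they had to be lower in CNT. Against a floor of 3 calls over the group, activity was at least 20.3-fold lower in CNT for the keratin gene Krt39, at least 17.8-fold lower for Mroh4 and at least 12.1-fold lower for the gastrin releasing peptide gene Grp. In PC they stood at 25.8, 29.1 and 12.7 for Krt39, 35.0, 15.2 and 12.7 for Mroh4 and 12.9, 12.8 and 11.3 for Grp. The mucin gene Muc20 had 4.57 ± 5.48 in CNT and 62.4 ± 7.18 in PC (log2 -4.44 ± 0.36, adjusted p = 1.75e-10), and a peak upstream of it was open in 19.4%, 9.02% and 16.0% of PC and 0.640% ± 0.489 of CNT nuclei. The connexin gene Gjb5 (log2 -3.77 ± 0.60), Tmem238l (log2 -4.26 ± 0.40), the defensin gene Defb29 (log2 -3.77 ± 0.55) and Nxpe5 (log2 -3.41 ± 0.43) were also among them. 9130008F23Rik had 59 open calls in PC and 3 in CNT (ratio 21, exact 95% interval 6.85 to 105, counting error only). It was open at its start in 24.6% ± 6.89 of IC nuclei, against 11.2% ± 4.38 of PC nuclei.

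The peaks that separated CNT from PC were compared with other clusters of the same samples. Peaks higher in CNT were open in DCT at 84.9% ± 4.02 of the CNT level (SD, n = 3), and at 98.2% ± 3.61 after each nucleus was thinned to 1000 open peaks. The loop of Henle (LOH) reached 61.5% ± 3.83, or 76.6% ± 2.48 thinned, and IC 63.5% ± 7.03, or 57.4% ± 2.06 thinned. Peak by peak, CNT was above DCT in all 3 samples at 1138 of the 2996 (38.0%), and DCT was not lower than CNT in any at 625 (20.9%). CNT was above LOH at 1818 (60.7%) and above IC at 2279 (76.1%). Peaks higher in PC were open in DCT at 34.3% ± 6.26 of the PC level, or 38.4% ± 2.14 thinned, and in IC at 60.8% ± 0.0412, or 57.2% ± 3.92. In adult nuclei that the annotation labelled nephron progenitors (NP) the ratio was 77.2% ± 8.70, or 77% ± 2.32. The study reported the NP cluster as enriched at P0. The number of adult nuclei under this label is not given here and their markers were not examined, so what these nuclei are was not tested. PC was above NP in all 3 samples at 1347 of 2912 peaks (46.3%), above IC at 2156 (74.0%) and above DCT at 2535 (87.1%). Such counts peak by peak were not made at tested peaks that were not called. The part of depth in them was not tested either. At tested peaks that were not called, the ratio to CNT was 99.7% ± 2.55 for DCT, 98.4% ± 0.840 for LOH and 90.9% ± 0.931 for IC with thinned nuclei, and the ratio to PC was 107% ± 4.78 for DCT, 97.6% ± 3.05 for IC and 91.9% ± 3.95 for NP. In thinned nuclei the ratio of DCT to CNT differed from that at peaks not called by less than its SD over samples, while the ratios of LOH and IC to CNT and of DCT, IC and NP to PC were lower at the called peaks. Because these peaks were chosen as higher in CNT than in PC, the CNT and PC levels at them are set by that choice.

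**Figure D3:**
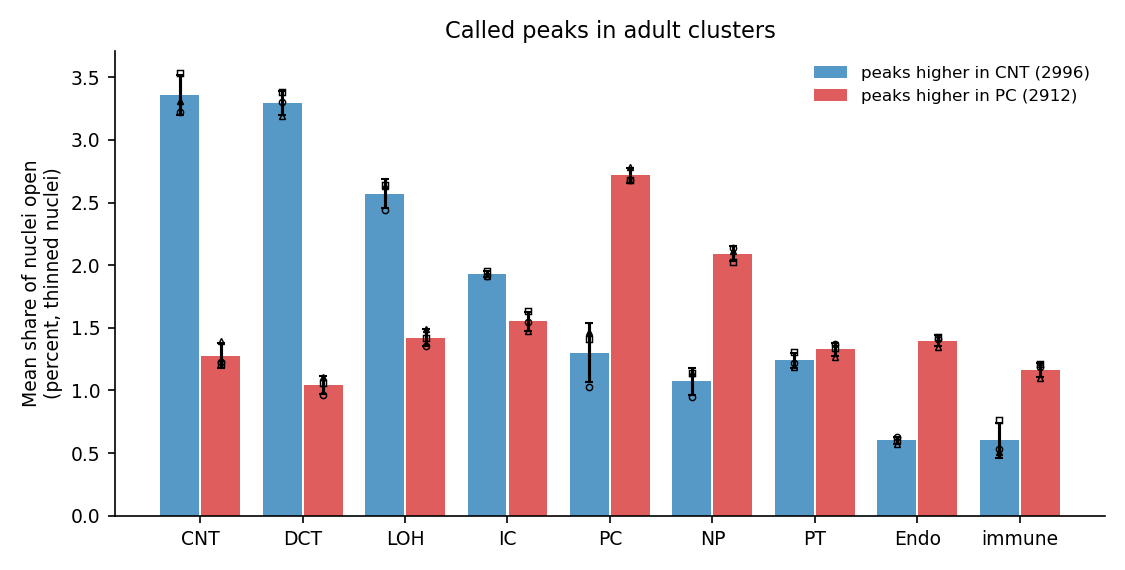
Bars show the mean share of nuclei open (percent) at 2996 peaks higher in CNT and 2912 peaks higher in PC in 9 clusters, with each nucleus thinned to 1000 open peaks, and error bars are the SD and points the values of the 3 adult samples. At peaks higher in CNT the mean was 3.36% in CNT, 3.29% in DCT and 1.30% in PC. At peaks higher in PC it was 2.72% in PC, 2.09% in adult nuclei labelled NP and 1.28% in CNT.

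A score for single nuclei asked whether the same sites parted the clusters in a sample not used to call them. Peaks were called on the other 2 adult samples, and each nucleus of the sample left out was scored by the percent of its open called peaks that were higher in CNT. Median scores were 83.2, 77.8 and 87.8 in CNT and 34.4, 43.7 and 50.1 in PC. Over all pairs of a CNT and a PC nucleus of 1 sample, the CNT nucleus scored higher in 97.8%, 98.8% and 98.6%. DCT nuclei scored 86.4, 82.1 and 88.5, as high as CNT or higher in each sample, LOH nuclei 73.3, 71.4 and 78.4 and IC nuclei 64.9, 65.1 and 71.1. Some nuclei lay past the midpoint of both medians, 6, 21 and 12 in CNT and 6, 9 and 19 in PC. The left-out sample had entered the joint clustering, so the score is not independent of the cluster definition. No search for doublets was made, and their part in the nuclei past the midpoint was not tested.

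**Figure D4:**
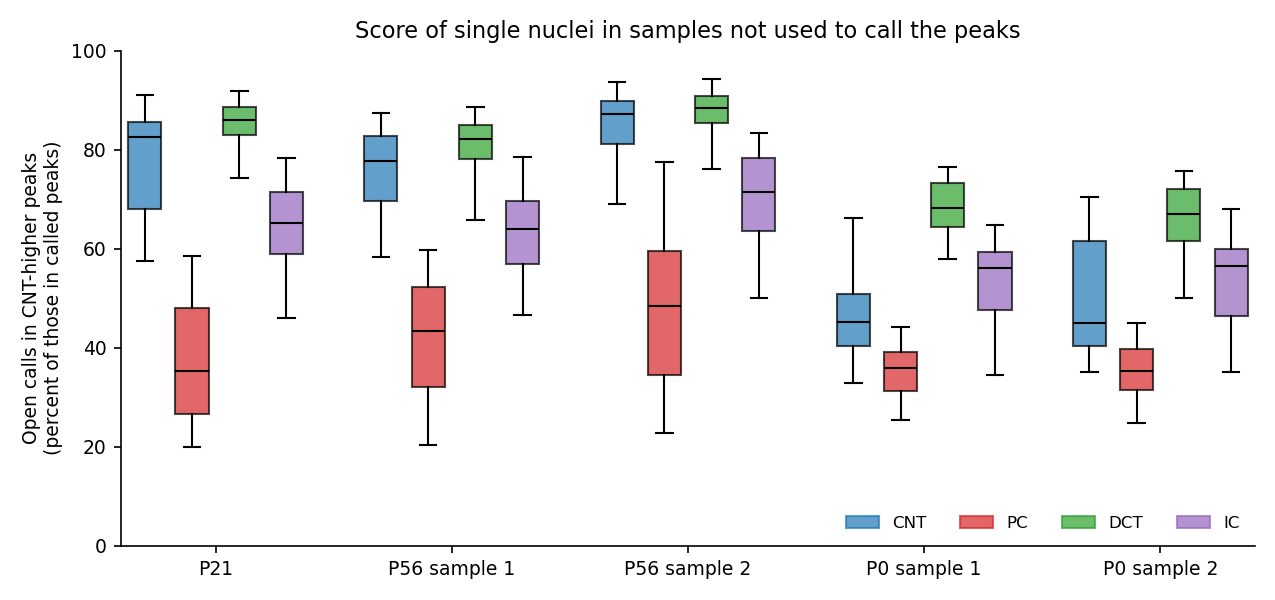
Box plots show the score, the percent of open called peaks that were higher in CNT, of nuclei thinned to 1000 open peaks in CNT, PC, DCT and IC of 5 samples (boxes are quartiles, whiskers the 5th and 95th percentiles). Adult medians were 82.5, 77.7 and 87.2 in CNT and 35.2, 43.3 and 48.4 in PC, and the clusters lie closer together at P0.

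The clusters of the same names were compared at P0. Marker sums were made for adult samples only, so whether these names mark the same cells at P0 was not tested. In the P0 samples 1738 peaks of 45535 tested (3.82%) were higher in CNT and 2039 (4.48%) in PC, and 442 genes of 22909 (1.93%) were higher in CNT and 632 (2.76%) in PC. The P0 fit had 2 samples and the adult fit 3, and the adult fit without P56 sample 2 called 1603 and 1064 peaks, so the number of calls was not compared between stages. Of the adult peaks higher in CNT, 2258 were tested at P0, of which 1839 (81.4%) had the same direction and 569 passed in it, and 14 passed in the other. Of those higher in PC, 2735 were tested, 2054 (75.1%) had the same direction, 342 passed in it and 13 in the other. Of all 21114 peaks tested at both stages, 57.6% had a difference at P0 in the direction of CNT, whatever their adult direction. The share of all tested peaks that kept the adult direction was not counted. The median log2 difference went from 1.17 in adults to 0.51 at P0 for CNT peaks and from -1.33 to -0.30 for PC peaks. Peaks were chosen by their adult values, which favours larger adult than P0 values, and the P0 nuclei had entered the joint clustering. With adult peaks, scores at P0 were 44.2 and 45.6 in CNT and 36.2 and 35.9 in PC, and the CNT nucleus of a pair scored higher in 88.6% and 92.1%. DCT nuclei of P0 scored 68.0 and 67.0, above CNT.

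The difference between CNT and PC itself changed with stage at 1429 of 21175 genes (6.75%) by an interaction test of edgeR over 5 samples, of which 817 were higher and 612 lower at P0 in CNT minus PC. Sequencing runs and preparations of P0 and adult samples cannot be told apart from stage. The same holds for how the joint clustering assigned P0 nuclei to CNT and PC. Several transport genes differed less between the clusters at P0. Calb1 went from log2 2.38 ± 0.20 in adults to log2 0.30 ± 0.20 at P0 (stage difference -2.14 ± 0.31, adjusted p = 4.61e-06), and Slc8a1 from log2 2.06 ± 0.12 to log2 0.26 ± 0.10 (stage difference -1.84 ± 0.17, adjusted p = 7.08e-11). For the DCT cotransporter Slc12a3 the values were log2 2.23 ± 0.14 and log2 0.13 ± 0.17 (stage difference -2.16 ± 0.23, adjusted p = 3.50e-09). Trpv5 did not show a stage difference that passed, with log2 1.13 ± 0.23 at P0 (-0.55 ± 0.29, adjusted p = 0.314). Several genes higher in PC differed less at P0 too. Elf5 went from log2 -2.06 ± 0.15 to log2 0.22 ± 0.11 (stage difference 2.22 ± 0.20, adjusted p = 7.08e-11), Aqp2 from log2 -1.49 ± 0.14 to log2 -0.42 ± 0.25 (stage difference 1.01 ± 0.32, adjusted p = 0.0448) and Fxyd4 from log2 -2.64 ± 0.30 to log2 -0.58 ± 0.28 (stage difference 2.01 ± 0.47, adjusted p = 0.00395). Aqp3 took opposite directions, with log2 -1.06 ± 0.25 in adults and log2 0.84 ± 0.16, adjusted p = 7.92e-04 at P0, where it passed as higher in CNT (stage difference 1.87 ± 0.31, adjusted p = 5.56e-05).

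Regulators showed both patterns. Wnt7b had log2 -0.64 ± 0.12 at P0 (stage difference 1.43 ± 0.23, adjusted p = 3.06e-05), Pax2 log2 0.0016 ± 0.10 (1.09 ± 0.16, adjusted p = 3.16e-06) and Esrrb log2 -0.014 ± 0.15 (-1.77 ± 0.21, adjusted p = 3.25e-08). Etv4 had log2 0.065 ± 0.14 at P0 (stage difference -1.73 ± 0.22, adjusted p = 2.65e-07), against log2 1.71 ± 0.16 in adults. Hoxa9 was further apart at P0, with log2 2.85 ± 0.20 (stage difference 1.08 ± 0.31, adjusted p = 0.0227). Krt19 had log2 -0.58 ± 0.21 at P0 (stage difference 2.08 ± 0.51, adjusted p = 0.00586). Of the 1429 genes, these were named for their adult values. Aqp2 did not pass without P56 sample 2 (log2 0.89, adjusted p = 0.211), P0 sample 1 (log2 0.93, adjusted p = 0.397) or P0 sample 2 (log2 1.15, adjusted p = 0.171). Fxyd4 did not pass without P56 sample 2 (log2 1.37, adjusted p = 0.154) or P0 sample 2 (log2 1.87, adjusted p = 0.0816). Hoxa9 did not pass without P56 sample 2 (log2 0.53, adjusted p = 0.623), P0 sample 1 (log2 1.23, adjusted p = 0.0574) or P0 sample 2 (log2 0.93, adjusted p = 0.248). Krt19 did not pass without P56 sample 2 (log2 1.69, adjusted p = 0.119) or P0 sample 2 (log2 1.63, adjusted p = 0.159). Aqp3 (log2 0.87, adjusted p = 0.124) did not pass without P56 sample 2.

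**Figure D5:**
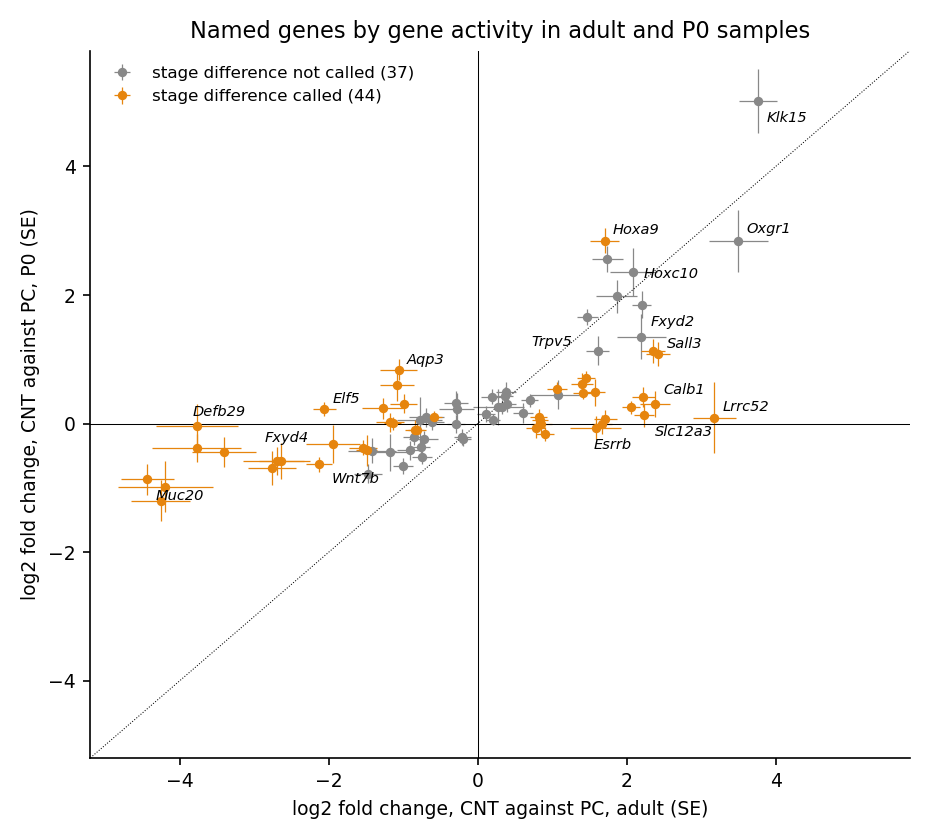
Each of 81 named genes is placed by its log2 difference CNT minus PC in adults (x axis) and at P0 (y axis), with error bars of 1 approximate standard error from the F statistic. The 44 genes whose stage difference passed are coloured apart from the 37 others. Most genes that passed lie nearer 0 at P0 than in adults. Genes not tested at P0, such as Klk1, Gpx6 and Il10, and genes with an adult log2 difference of 5 or more in size were left out.

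Markers of other cell types were summed in the same way, and no list had a member at 0 in CNT or PC. The 4 tested DCT markers were all higher in CNT. Sums over all 5 DCT markers, tested or not, were 973, 741 and 971 in CNT and 346, 299.6 and 343 in PC, against 1729, 1396 and 1340.3 in DCT. Of 4 tested intercalated cell markers, Slc26a4 (log2 1.58 ± 0.35, adjusted p = 9.69e-04) and Insrr (log2 1.08 ± 0.38, adjusted p = 0.0384) were higher in CNT, and the sums of the list were 109 ± 12.2 in CNT, 83.1 ± 14.1 in PC and 769 ± 39.9 in IC. Among 5 loop of Henle markers, Umod (log2 0.82 ± 0.28, adjusted p = 0.0332) and Kcnj1 were higher in CNT, with sums of 309 ± 28.4 and 200.3 ± 24.6. Higher in PC were 3 of 5 tested proximal tubule markers, Slc34a1 (log2 -1.18 ± 0.24, adjusted p = 3.54e-04), Hnf4a (log2 -1.09 ± 0.23, adjusted p = 7.09e-04) and Cubn (log2 -0.69 ± 0.23, adjusted p = 0.0331). Sums over all 8 proximal tubule markers, tested or not, were 369.8, 145 and 324 in PC and 286, 144 and 134 in CNT. The endothelial markers Pecam1 (log2 -1.48 ± 0.19, adjusted p = 6.60e-07) and Flt1 (log2 -0.72 ± 0.19, adjusted p = 0.00653) were higher in PC, of 3 tested. So were the podocyte marker Synpo (log2 -1.54 ± 0.19, adjusted p = 3.34e-07), of 2, and the immune marker Cd74 (log2 -1.94 ± 0.37, adjusted p = 1.71e-04), of 3. The podocyte marker Podxl (log2 0.41 ± 0.31, adjusted p = 0.421) and the immune marker Cd52 (log2 0.36 ± 0.14, adjusted p = 0.0565) leaned to CNT and did not pass. The immune marker Ptprc leaned to PC and did not pass (log2 -0.49 ± 0.22, adjusted p = 0.129). Of all tested genes, 8.79% were higher in CNT and 11.7% in PC. Stroma markers summed to 38.9 ± 4.04 in CNT and 37.5 ± 8.43 in PC. The part of these cells in the differences between CNT and PC was not tested. Insrr did not pass without P56 sample 1 (log2 1.12, adjusted p = 0.0556) or P56 sample 2 (log2 0.73, adjusted p = 0.410). Umod did not pass without the P21 sample (log2 0.84, adjusted p = 0.0613), P56 sample 1 (log2 0.71, adjusted p = 0.136) or P56 sample 2 (log2 0.95, adjusted p = 0.176). Cubn did not pass without the P21 sample (log2 -0.68, adjusted p = 0.106), P56 sample 1 (log2 -0.59, adjusted p = 0.189) or P56 sample 2 (log2 -0.81, adjusted p = 0.0687). Flt1 (log2 -0.58, adjusted p = 0.0522) did not pass without the P21 sample. Slc34a1 (log2 -0.62, adjusted p = 0.261) and Hnf4a (log2 -0.25, adjusted p = 0.726) did not pass without P56 sample 2. In thinned nuclei the log2 difference was -2.44 for Synpo. Under other settings calls were lost for Slc26a4, Insrr, Umod, Slc34a1, Hnf4a, Cubn and Flt1 with DESeq2, Insrr, Umod, Slc34a1, Hnf4a, Cubn and Flt1 without the sample block, Flt1 in the start window, Cubn over peaks of 1 gene and with no filter, Insrr and Cubn with equal nuclei, and Hnf4a and Pecam1 in thinned nuclei.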

How the data were processed

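Nuclei of mouse kidneys were profiled by snATAC-seq on the 10x platform in 1 sample at P21, 2 at P56 and 2 at P0, with mm10 (GRCm38), Cell Ranger ATAC 1.1.0 and MACS2 named in the submitters' processing notes. The authors clustered nuclei of all samples together with SnapATAC and Harmony, called peaks per cell type on pooled nuclei and merged them. They deposited a count matrix of nuclei by 300755 peaks in which an entry of 1 marks an open peak, and 89197 stored zeros were read as closed. Cluster names were taken from the deposited annotation. Calls of a cluster's nuclei within a sample were added up, at peaks and over gene windows (gene body and 2 kb upstream, from the GENCODE annotation of that build). Sums held between 367747 and 1653442 open calls, and their precision at a site is limited by the number of nuclei. Shares, folds and floors of 3 calls thus carry counting error beside the spread over samples.

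CNT was compared with PC in R 4.3.3 by the quasi-likelihood test of edgeR 4.0.16, with limma 3.58.1, TMM scaling and sample as a block. Benjamini-Hochberg adjustment at 0.05 ran over all peaks or genes tested. The filter asked for 10 calls, scaled by depth, in as many libraries as the smallest group held, and for 15 calls in all. Libraries of the other cluster could thus hold no call. Stage differences were tested as an interaction over all 5 samples. DESeq2 1.42.0 was an alternative, as were size factors, no filter, no block, each sample left out, equal nuclei, nuclei thinned to 1000 open peaks, a Fisher exact test over nuclei and other gene windows. Tables and plots used Python 3.11.15, numpy 2.4.6, pandas 2.3.3, scipy 1.17.1 and matplotlib 3.10.9. The fit was tested on simulated data. Both clusters of a sample came from 1 preparation of nuclei, which is where the pairing comes from.

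The clusters, gene lists and motifs were chosen with earlier results of these data known. Genes were named by a rule: Trpv5, Aqp2 and Fxyd4 as the study's markers, up to 5 called and 2 other members of each list by smallest p, the 10 protein coding genes per direction with the largest difference of the same sign in all 3 samples, and the 6 peaks per direction with the smallest p. Windows of neighbouring genes overlap, so 1 peak can count for several genes. Doublets were not searched for. The single-cell RNA and bulk ATAC samples were not used here. Results of 2 genes that the rule named are not reported here.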

Additional observations from a re-analysis of the deposited data

Results flagged for a closer look

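The difference between CNT and PC was tested between P0 and adults, by an interaction test of edgeR over 5 samples, in which 1429 of 21175 genes (6.75%) passed, 49 of the genes described among them (adjusted p under 0.05 in each). Values are log2 differences, CNT minus PC at P0 less CNT minus PC in adults, and the genes were named by their adult values, which favours smaller differences at P0. The gap between CNT and PC was lower at P0 for the transport genes Calb1 (-2.14), Slc8a1 (-1.84), Trpm6 (-1.89), Slc12a3 (-2.16), Bsnd (-1.28), Kcnj10 (-0.58), Kcnj1 (-0.90) and Slc26a4 (-1.73). It was lower too for the receptors and regulators Pth1r (-0.82), Kl (-1.16), Klhl3 (-0.98), Wnk1 (-0.79), Sgms2 (-0.84), Nr3c2 (-0.54) and Lgr5 (-1.05), for the transcription factors Sall3 (-1.41), Esrrb (-1.77), Emx1 (-0.85), Tfap2b (-0.93), Etv4 (-1.73) and Etv5 (-1.15) and for Il10 (-3.83) and Lrrc52 (-3.17). For genes higher in PC in adults the value was positive, with Aqp2 (1.01), Aqp3 (1.87), Aqp4 (1.98), Fxyd4 (2.01), Sgk1 (0.65) and Kcnj15 (1.48) among transport and kinase genes, Elf5 (2.22), Pax2 (1.09), Gata2 (0.70), Emx2 (1.24) and Pax8 (0.62) among transcription factors and Wnt7b (1.43) and Fzd1 (1.13) among Wnt genes. Krt19 (2.08), Krt39 (5.74) and Grp (6.27) followed, the last 2 of which had no open call in adult CNT, so that their fitted values depend on the prior count and are no bounds. Others were Muc20 (3.53), Gjb5 (3.35), Tmem238l (3.02), Defb29 (3.69), Nxpe5 (2.92) and 9130008F23Rik (3.19). The value of 9130008F23Rik rests on 3 open calls in adult CNT. Aqp3 did not only differ less at P0 but passed there as higher in CNT (log2 0.84 ± 0.16, adjusted p = 7.92e-04 by edgeR). Markers of other cell types were Hnf4a (1.64), Synpo (1.11) and Cd74 (1.54). Hoxa9 was higher in CNT at both stages and further apart at P0 (1.08).

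Most of these calls did not pass in every fit with 1 sample left out. In the 3 fits without an adult sample, 26 of the 49 passed each time. A fit without 1 of the P0 samples held only 1 P0 sample. The part of the smaller number of samples in the lost calls was not tested. With each of the 5 samples left out in turn, 17 of the 49 passed every time and 32 did not pass at least once. Without P56 sample 2, 22 did not pass, with log2 values of -0.67 for Wnk1, 0.65 for Sgk1, 0.89 for Aqp2, 0.87 for Aqp3, 1.37 for Fxyd4, -0.66 for Kcnj10, 0.65 for Kcnj15, 0.49 for Gata2, 0.88 for Emx2, -0.82 for Emx1, -0.88 for Tfap2b, 0.53 for Hoxa9, 1.69 for Krt19, 6.19 for Krt39, 6.30 for Grp, 1.97 for Tmem238l, 2.39 for 9130008F23Rik, -1.59 for Slc26a4, 0.80 for Hnf4a, 0.71 for Synpo, 1.87 for Cd74 and -0.56 for Nr3c2. Without P0 sample 1, 20 did not pass, with log2 values of -0.57 for Pth1r, -0.77 for Kl, -0.72 for Wnk1, -0.55 for Sgms2, 0.75 for Sgk1, 0.93 for Aqp2, 1.72 for Aqp4, -0.56 for Kcnj10, -0.92 for Kcnj1, -0.63 for Emx1, -0.78 for Tfap2b, 0.64 for Pax8, 1.23 for Hoxa9, 0.95 for Fzd1, -3.44 for Il10, 2.67 for Gjb5, 3.12 for 9130008F23Rik, -1.38 for Slc26a4, 1.71 for Cd74 and -0.31 for Nr3c2. Without P0 sample 2, 13 did not pass, with log2 values of 0.62 for Sgk1, 1.15 for Aqp2, 1.87 for Fxyd4, -0.56 for Kcnj10, -0.84 for Kcnj1, 0.48 for Gata2, 0.67 for Pax8, 0.93 for Hoxa9, 1.63 for Krt19, 5.12 for Krt39, 3.26 for 9130008F23Rik, 1.14 for Hnf4a and 1.46 for Cd74. Without the P21 sample, 4 did not pass, with log2 values of -0.42 for Kcnj10, -0.75 for Emx1, 1.43 for Cd74 and -0.45 for Nr3c2. Without P56 sample 1, 2 did not pass, with log2 values of 1.57 for Cd74 and -0.70 for Lgr5. Cd74 alone passed in none of the 5.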

How the results depend on the processing

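The number of calls depended on the settings more than their direction did. With DESeq2 the counts were 967 peaks and 415 genes higher in CNT and 817 and 571 in PC. With no filter, 5576 and 4710 peaks were called, and a Fisher exact test over nuclei, which are not replicates, called 6955 and 10473. Thinned to 1000 open peaks, nuclei gave 68 and 24 peaks and 311 and 381 genes, and the start window gave 996 and 1166 genes. Without the sample block that pairs both clusters of a sample, 2029 peaks and 791 genes were higher in CNT and 1807 peaks and 1094 genes in PC, and the calls of genes described that it ended are named in the report. Leaving out 1 adult sample gave 1603 to 4206 peaks and 1056 to 1419 genes in CNT and 1064 to 3685 peaks and 1130 to 2189 genes in PC, each lowest without P56 sample 2. Stage differences numbered 494 to 1396, with 494 without P0 sample 1, 741 without P0 sample 2 and 506 without P56 sample 2. Size factors, equal nuclei and peaks of 1 gene kept each count within 1.5 times.

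The intronic and distal share was 58.1% of peaks higher in CNT and 47.7% of those higher in PC with promoters of 5 kb assigned first, and 68.6% and 59.0% with promoters of 2 kb. Over whole peaks the difference CNT minus PC was 4.06 percentage points for ESRR, 3.27 for HNF1, -7.03 for ELF, -8.16 for AP1 and -0.58 for NFI, and over peaks at no annotated start, a choice made after seeing the data, it was -4.56 for GATA. With thinned nuclei, peaks higher in CNT were open in DCT at 98.2% and in LOH at 76.6% of the CNT level, peaks higher in PC were open in IC at 57.2% of the PC level, and CNT scored higher in 97.8% of adult and 85.0% of P0 pairs. With 1 sample left out the log2 difference ranged from -0.0068 (without the P21 sample) to 0.55 (without P56 sample 2) for Scnn1b, and from -1.07 (without P56 sample 1) to 0.32 (without P56 sample 2) at the peak over the start of Aqp3, where Scnn1b passed at 0.55 and neither passed after its sign turned. For these changes the cause was not tested. Of 1095 values for 107 genes, 939 kept direction and side of the threshold, as did 748 of 854 for 95 peaks and 184 of 245 for 49 stage differences. A gene or peak under the filter of a fit gave no value there. In thinned nuclei 45 genes kept direction and side and 24 lost their call. For peaks these numbers were 13 and 11, and the other genes and peaks gave no value. For P0 alone, leaving out a sample leaves no residual degrees of freedom, so it was not run. Among the fits with 1 adult sample left out, the most peaks were called without the P21 sample, 4206 and 3685 of 29769 tested. That sample had the fewest nuclei of both clusters (83 and 103) in adults. Peaks under the filter on low counts, all but 7.57%, were not tested at this depth.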
